A study of Rattus norvegicus with 3 samples.

Results

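The genes described here are 10 cathepsin genes, taken from the deposited table by symbol as Ctsa, Ctsb, Ctsc, Ctsd, Ctsf, Ctsh, Ctsk, Ctso, Ctss and Ctsz. They were 10 of the 18425 genes in that table. All 10 had whole-number read counts in every library, and all had a mean of at least 10 counts, so none was removed by a filter on low values. Retinas of WT Sprague Dawley rats were collected at postnatal day 4 (P4), after an intravitreal injection of 1 µl at P1. One library came from eyes given streptozotocin (STZ), a DNA-alkylating analog of N-acetyl glucosamine, at 10 µg in citrate buffer of pH 4.5. The buffer library came from eyes given the citrate buffer of pH 4.5 alone, and the saline library from eyes given saline. The libraries held between 21977843 and 22031249 counted reads. With 1 library per condition there is no replicate error, no p-value was computed, and every difference is one between libraries. How many retinas or animals went into a library is not given in the sources used here. For the intravitreal experiments the paper describes STZ in right eyes and citrate buffer in the left eyes of those same animals. Whether the sequenced buffer and STZ retinas were paired in this way is not given.

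Cathepsins are proteases that work mainly in the acidic lumen of lysosomes, where they degrade proteins delivered by endocytosis, phagocytosis and autophagy. They are made as inactive precursors, tagged with mannose 6-phosphate, carried to the lysosome by sorting receptors and activated there by cleavage. Most belong to the papain-like cysteine proteases, represented here by Ctsb, Ctsc, Ctsf, Ctsh, Ctsk, Ctso, Ctss and Ctsz. Ctsd encodes an aspartic protease and Ctsa a serine carboxypeptidase. In the retina, cathepsins are known from neurons, from the pigment epithelium, which digests shed photoreceptor outer segments, and from microglia, which clear dying cells.

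The cathepsins as a family were more abundant in the STZ library than in either control. Their FPKM (fragments counted per kilobase of transcript and scaled to sequencing depth) summed to 472 in STZ, compared with 281 in buffer and 311 in saline. The summed FPKM was therefore 1.68 times as high in STZ as in buffer and 1.52 times as high as in saline, while saline was 1.11 times as high as buffer. By reads, STZ held 17288 of the family, buffer 10337 and saline 11362. The ratio of these shares of the library totals was 1.67 for STZ against buffer, with a 95% counting interval of 1.63 to 1.71. Such intervals are exact Clopper-Pearson intervals and cover counting error only, since each condition has 1 library. Reads were also not collapsed to molecules by molecular identifiers, a further limit of these intervals. The fold of a single gene was computed as (FPKM + 1)/(FPKM + 1), which pulls weakly expressed genes toward 1. A gene was called lower below 0.65 and higher above the inverse of 0.65, rounded to 2 decimals.

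By these thresholds 5 of the 10 cathepsins were higher in STZ than in buffer, Ctsz, Ctss, Ctsd, Ctsb and Ctsc, and 0 were lower. Of all 18425 genes, 2.25% were higher and 1.04% were lower in the same comparison. Against saline, 4 of the 10 were higher, the same genes without Ctsc, where 2.04% of all genes were higher and 1.75% lower, and 0 of the 10 were lower. These 4 passed against both controls, as did 1.39% of all genes. In saline against buffer, 1 of the 10 was higher, Ctsh, and 0 were lower, beside 1.0% and 0.429% of all genes. The median log2 fold of the 10 genes was 0.57 in STZ against buffer and 0.45 against saline, beside 0.03 and 0.01 for all 14885 genes that had at least 10 counts on average. In saline against buffer it was 0.21, beside 0.02 for all those genes. The comparisons share libraries and are not independent of each other.

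**Figure D1:**
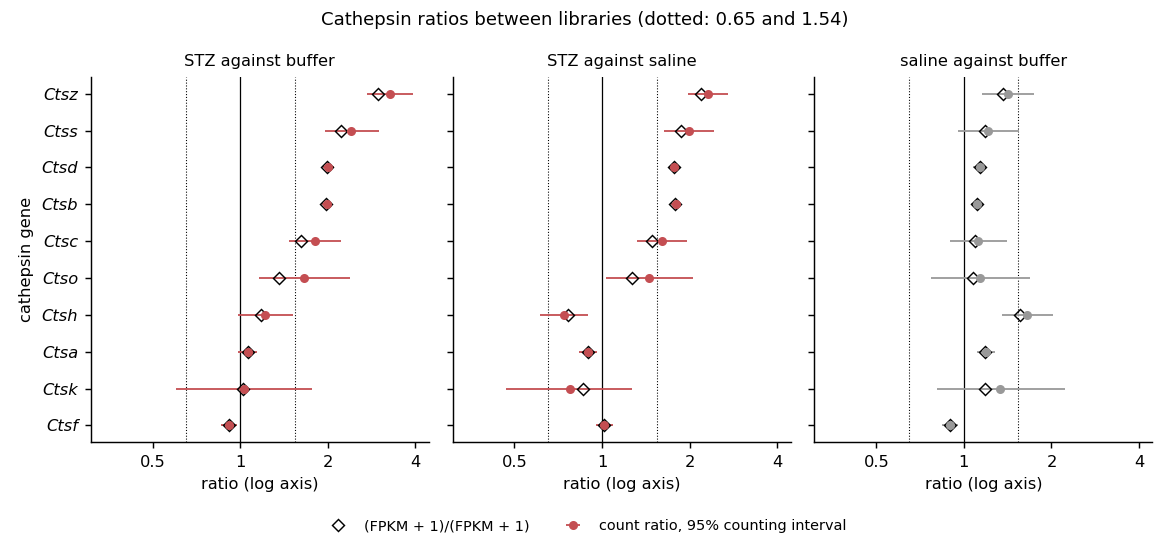
Ratio of each cathepsin between 2 libraries (horizontal log axis), with a panel for STZ over buffer, a panel for STZ over saline and a panel for saline over buffer. Filled points are ratios of count shares with their 95% counting intervals, open diamonds are (FPKM + 1)/(FPKM + 1), and dotted lines mark the fold thresholds. Ctsz lies farthest to the right in both STZ panels, with count ratios of 3.28 and 2.31, while Ctsh lies past the upper line in the panel of saline over buffer.

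The promoter is where transcription of a gene starts. RefSeq sequence of the 250 bases before the annotated start was available for 9 of the 10 genes, all but Ctsb, which was not searched. The letters searched on both strands were CACGTG, the palindromic E-box core bound by TFEB, a transcription factor of lysosomal genes, and its extension TCACGTG, which overlaps it. The other motifs were GAGGAA, a core of sites for the myeloid factor PU.1, the GC box GGGCGG and the TATA box, searched as TATAAA. The promoters below are shown because Ctsd and Ctsf both hold CACGTG and differ in their values, and because Ctsz and Ctss had the largest folds. Capitals mark the matches.
Ctsd (GRCr8 chr1:206968822-206969071, minus strand): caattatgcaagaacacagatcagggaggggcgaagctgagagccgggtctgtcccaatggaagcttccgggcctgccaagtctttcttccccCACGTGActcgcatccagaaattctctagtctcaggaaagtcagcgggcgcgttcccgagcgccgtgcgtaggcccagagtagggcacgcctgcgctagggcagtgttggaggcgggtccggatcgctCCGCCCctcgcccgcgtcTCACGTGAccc
Ctsf (GRCr8 chr1:211581919-211582168, plus strand): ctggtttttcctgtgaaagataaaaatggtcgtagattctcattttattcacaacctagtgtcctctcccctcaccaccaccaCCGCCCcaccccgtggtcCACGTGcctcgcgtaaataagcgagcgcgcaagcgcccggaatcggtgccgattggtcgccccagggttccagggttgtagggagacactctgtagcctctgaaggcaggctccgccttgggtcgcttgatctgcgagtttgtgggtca
Ctsz (GRCr8 chr3:183653848-183654097, minus strand): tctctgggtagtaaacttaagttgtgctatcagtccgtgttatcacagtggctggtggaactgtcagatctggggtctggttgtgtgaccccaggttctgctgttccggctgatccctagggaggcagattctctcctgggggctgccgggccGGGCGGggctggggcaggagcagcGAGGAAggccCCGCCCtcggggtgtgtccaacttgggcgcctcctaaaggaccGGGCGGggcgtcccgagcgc
Ctss (GRCr8 chr2:185775146-185775395, plus strand): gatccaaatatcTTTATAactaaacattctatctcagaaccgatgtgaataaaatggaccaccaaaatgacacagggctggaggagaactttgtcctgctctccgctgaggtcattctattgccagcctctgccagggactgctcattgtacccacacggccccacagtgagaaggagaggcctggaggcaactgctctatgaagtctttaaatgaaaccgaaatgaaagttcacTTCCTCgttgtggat
Ctsd held CACGTG at 2 places, 157 and 10 bases before the start. The extension TCACGTG was read on the opposite strand at the first place and on both strands at the second. Ctsf held it once, 149 bases before the start, without that extension. Of all 33469 promoters, 5.59% held CACGTG and 2.79% held TCACGTG. The PU.1 core GAGGAA was found in Ctsc, Ctsk, Ctss, Ctsa, Ctsz and Ctsh, and in 23.3% of all promoters. In Ctss it lay 15 bases before the start, on the opposite strand, and in Ctsz 73 bases before it. GGGCGG was found in Ctsc, Ctsd, Ctsf, Ctsa and Ctsz, with 3 matches in Ctsz, and in 30.5% of all promoters. TATAAA was found in Ctso, 160 bases before the start, and in Ctss, 238 bases before it on the opposite strand. It was found in 12.9% of all promoters. The share of G and C ranged from 44.0% in Ctso to 64.0% in Ctsz, against a median of 51.2% over all promoters. These matches are letters in a window and were not tested as binding sites.

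Ctsb and Ctsd, the most abundant members, were about equally higher in the STZ library. Ctsb, a cysteine endopeptidase that also removes dipeptides from protein ends, reached an FPKM of 177 in STZ, compared with 89.1 in buffer and 98.9 in saline. The STZ library was the highest and the controls lay close together. The fold over buffer was 1.98 and that over saline 1.79, and by counts STZ held 1.99 times the share of buffer (1.91 to 2.07). Ctsd, the main aspartic protease of lysosomes, reached an FPKM of 152 in STZ, compared with 75.9 in buffer and 86.1 in saline. It was higher by a fold of 1.99 over buffer and 1.76 over saline, again with the controls close together. The level of Ctsb relative to Ctsd, as a ratio of FPKM, hardly varied, at 1.17 in buffer, 1.15 in saline and 1.16 for STZ, within overlapping counting intervals. Both were also slightly higher in saline than in buffer, with count ratios of 1.11 (1.06 to 1.16) and 1.13 (1.08 to 1.19).

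Ctsz had the largest fold of the family. It encodes cathepsin X, also called cathepsin Z, a carboxypeptidase with high expression in cells of the macrophage lineage. The gene had 159 reads in buffer, 225 in saline and 522 in STZ, or FPKM levels of 6.43, 9.12 and 21.1. All libraries stood apart, with STZ highest and buffer lowest. The fold over buffer was 2.97 in STZ and 1.36 in saline, and STZ over saline gave 2.18. The count ratio of STZ against buffer was 3.28 (2.74 to 3.94), an interval that lies above those of Ctsb and Ctsd. Its fold in STZ over buffer exceeded that of 99.6% of the 14885 genes with at least 10 counts on average.

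Ctss encodes a cysteine protease that stays active near neutral pH and trims the invariant chain during antigen presentation. The gene had 127 reads in buffer, 154 in saline and 307 in STZ, or FPKM levels of 6.22, 7.56 and 15.01. STZ was highest, with a fold of 2.22 over buffer and 1.87 over saline. Between saline and buffer the counting interval of its ratio, 0.953 to 1.55, included 1. Ctsc encodes dipeptidyl peptidase I, which activates the serine proteases of immune cell granules. Its FPKM of 3.93, 4.39 and 6.98 in buffer, saline and STZ came from 150, 168 and 271 reads. It passed against buffer with a fold of 1.62 and fell short of the threshold against saline with 1.48, although its count ratio against saline was 1.61 (1.32 to 1.96).

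Ctso, a widely expressed and little characterised cysteine protease, had few reads, 52 in buffer, 59 in saline and 86 in STZ. Its FPKM was 1.25, 1.42 and 2.06, so the pseudocount of 1 weighs heavily on its fold of 1.36 against buffer. The count ratio was 1.65 against buffer (1.16 to 2.38) and 1.45 against saline (1.03 to 2.06). With Ctso, 6 of the 10 genes had a counting interval above 1 in STZ against buffer, as did 26.2% of the 14885 genes. Against saline the number was again 6, beside 26.9% of the genes. An interval below 1 was found for Ctsf in STZ over buffer (18.8% of the genes) and for Ctsa and Ctsh in STZ over saline (23.5%). In saline over buffer 5 intervals lay above 1 and 1 below, beside 15.9% and 12% of the genes. Such intervals hold no variation between animals.

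The other 4 members passed no threshold in STZ against either control. Ctsf, a papain-like protease whose human counterpart is mutated in an adult form of neuronal ceroid lipofuscinosis, stood at an FPKM of 56.4 in buffer, compared with 50.6 in saline and 51.5 in STZ. Buffer was its highest library, and the fold was 0.915 in STZ against buffer and 0.899 in saline against buffer. Ctsa encodes the carboxypeptidase that protects the glycosidases Neu1 and Glb1 in the lysosome. Saline was its highest library, with an FPKM of 41.55 beside 34.9 in buffer and 37.0 in STZ. The fold was 1.06 in STZ against buffer and 0.894 against saline. Ctsk, the collagen-degrading protease of osteoclasts, had the fewest reads of the family, 40 in saline, 30 in buffer and 31 in STZ. The counting interval of its ratio in STZ against buffer ran from 0.604 to 1.76, and the depth does not allow a difference inside that range to be seen.

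Ctsh, an aminopeptidase, was highest in the saline library. The gene had 259 reads there, compared with 157 in buffer and 192 in STZ, or FPKM levels of 10.0, 6.09 and 7.39. The fold of saline over buffer was 1.55, just past the threshold and short of it with TMM factors, a scaling by the bulk of the genes, at 1.536. That of STZ over saline was 0.762. The count ratio of saline against buffer was 1.65 (1.35 to 2.03). Some ciliary epithelium and pigment epithelium markers were also highest in saline. The 5 ciliary markers summed to 8195 reads in saline, 2259 in buffer and 2375 in STZ. Aldh1a1 held most of these reads, and without it the sums were 1357, 355 and 471. In saline over buffer 3 of the 5, Aldh1a1, Gja1 and Wfdc1, passed the upper threshold, as did 1.0% of all genes, while Cp was highest in STZ. The 6 pigment epithelium markers summed to 8472, 7935 and 6453 reads in the same order, with Pmel, Dct and Tyrp1 past the threshold in saline over buffer. Rlbp1, which held most of these reads and is also expressed in glia, and Ttr were highest in buffer, and without Rlbp1 the sums were 1901, 939 and 952. Rpe65, which defines mature pigment epithelium, had 2, 0 and 2 reads. Their part in the values of Ctsh, Ctsa and Ctsk was not tested.

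**Figure D2:**
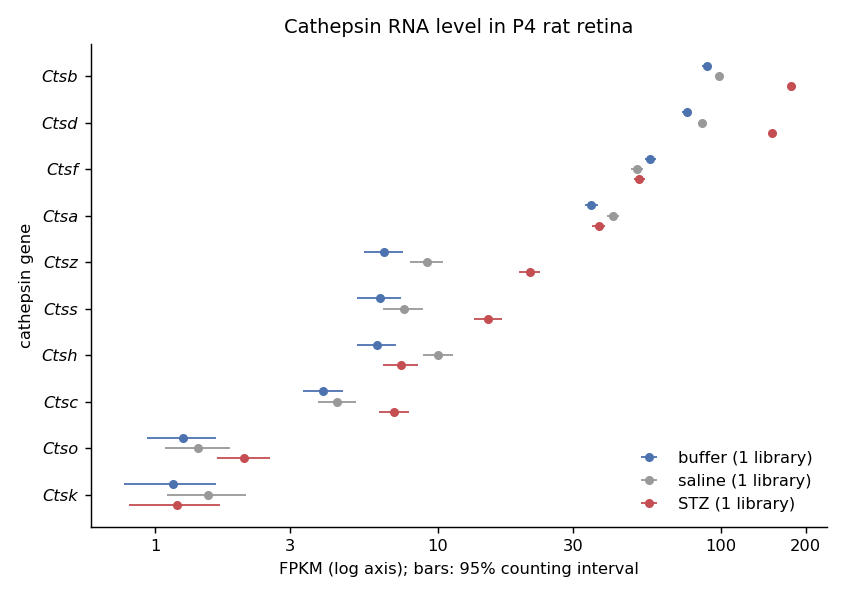
FPKM of the 10 cathepsins (horizontal log axis) in the buffer, saline and STZ libraries, 1 point per library, with bars for the 95% counting interval. STZ lies to the right of both controls for Ctsb, Ctsd, Ctsz, Ctss, Ctsc and Ctso, with interval overlap for Ctso, while Ctsf, Ctsa, Ctsh and Ctsk do not have their highest level in STZ.

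Levels per transcript length spanned a wide range. In buffer the order from high to low FPKM was Ctsb, Ctsd, Ctsf, Ctsa, Ctsz, Ctss, Ctsh, Ctsc, Ctso and Ctsk, and the first was 77.5 times as high as the last. Ctsz, Ctss and Ctsh, at 6.43, 6.22 and 6.09, could not be ordered, since the counting intervals of the ratios between neighbours included 1, and the same held for Ctso and Ctsk. In saline Ctsh moved ahead of Ctsz and Ctss, and the intervals for Ctsh over Ctsz and for Ctsz over Ctss included 1, as did that for Ctsk over Ctso. Ctsh was 1.32 times as high as Ctss there (1.08 to 1.63), so these could be ordered. In STZ the order of buffer returned and only Ctsh and Ctsc, at 7.39 and 6.98, lay within counting error of each other. In that library Ctsz was 1.4 times as high as Ctss (1.22 to 1.62) and Ctss 2.03 times as high as Ctsh (1.69 to 2.45). Ctsk and Ctss lie close together on chromosome 2 of the GRCr8 annotation, with 1 annotated protein-coding gene between them. The FPKM of Ctss was 5.41 times that of Ctsk in buffer, 4.91 times in saline and 12.6 times in STZ, where the interval of 8.7 to 18.9 lay above those of both controls, 3.61 to 8.34 and 3.45 to 7.14.

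The make-up of the family differed between the libraries. Ctsb and Ctsd together held 58.6% of the summed FPKM in buffer, 59.4% in saline and 69.9% in STZ. Ctsf held 20.1%, 16.3% and 10.9%, and Ctsa 12.4%, 13.4% and 7.85%. Ctsz and Ctss remained small parts, with Ctsz at 2.29%, 2.93% and 4.46% and Ctss at 2.21%, 2.43% and 3.18%. The 8 genes other than Ctsb and Ctsd summed to an FPKM of 142 in STZ, compared with 116 in buffer and 126 in saline. The 8 cysteine proteases as a class kept close to the same part of the family, 60.6%, 59.0% and 59.9%, while the aspartic protease Ctsd held 27.0%, 27.7% and 32.3%.

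**Figure D3:**
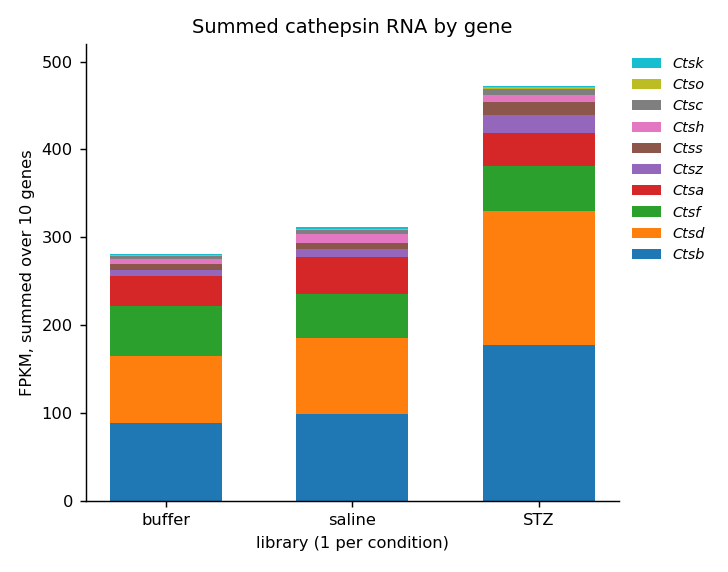
Summed FPKM of the cathepsins (vertical axis from 0) in the 3 libraries, 1 per condition, with a coloured segment per gene and no error bars. The bars reach 281, 311 and 472, and the segments of Ctsb and Ctsd differ most in height between the controls and STZ.

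Microglia, the macrophages of the retina, express many cathepsins, and their markers were higher in the STZ library. Of the 15 markers 12 were higher in STZ than in buffer and 11 than in saline, and 0 were lower in either. Among all genes, 2.25% were higher and 1.04% lower against buffer, and 2.04% and 1.75% against saline. In STZ against buffer, Tyrobp had a fold of 4.34, C1qc 3.48, Fcer1g 3.38, C1qb 3.3, Aif1 2.96 and Trem2 2.9. Ptprc, Itgam and P2ry12 passed over neither control, with folds of 1.52, 1.415 and 1.27 over buffer. The summed FPKM of the 15 markers reached 222 in STZ from 69.2 in buffer and 89.2 in saline, so that STZ was 3.21 times buffer and saline 1.29 times buffer. In bulk tissue, more cells of a type and more RNA per cell cannot be told apart.

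Relative to this sum, Ctsz kept nearly the same level in all libraries, and every other cathepsin was lower in STZ than in buffer. This follows from the choice of the sum, which was 3.21 times as high in STZ. Any gene with a smaller FPKM ratio comes out lower. The fold of Ctsz exceeded that of 99.6% of the 14885 genes, so a lower relative level is not particular to the other cathepsins. These relative levels depend on the markers summed. Single markers had count ratios of STZ against buffer from 1.59 for P2ry12 to 4.99 for Tyrobp. Csf1r, with the most reads of the list, had 2.01, beside 2.41 for Ctss, 1.99 for Ctsb and 2.01 for Ctsd. Per 100 FPKM of microglia markers, Ctsz stood at 9.29 FPKM in buffer, at 10.2 in saline and at 9.48 in STZ. Ctss had 8.99, 8.48 and 6.76. Ctsb had 129, 111 and 79.8, and Ctsd had 110, 96.6 and 68.6. Ctsf had 81.6, 56.8 and 23.2, so that STZ was at 0.284 of the buffer value, the lowest such ratio of the family. Over saline the lowest was that of Ctsh, at 0.296, beside 0.409 for Ctsf. Without C1qa, C1qb and C1qc, which hold 44.1% to 45.9% of the marker sum, the value of Ctsz in STZ was 1.05 times that in buffer, and that of Ctss was 0.775 times. The part of microglia in the cathepsin values was not tested, and the libraries do not say which cells the reads came from.

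**Figure D4:**
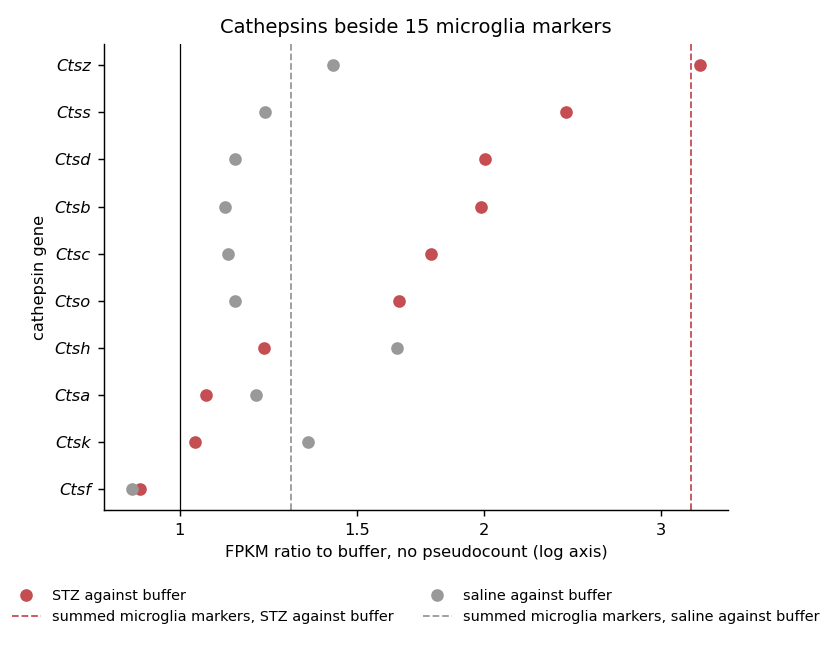
FPKM ratio to buffer without a pseudocount (horizontal log axis) for each cathepsin in STZ and in saline, with dashed lines for the summed FPKM of 15 microglia markers in the same libraries. The marker sum is at 3.21 in STZ and 1.29 in saline. Of the cathepsins, Ctsz alone reaches the STZ line.

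Markers of other cell types moved in both directions, and their part in the cathepsin values was not tested. The 6 endothelial markers summed to 10138 reads in STZ, 13722 in buffer and 15068 in saline, and 3 of the 6 were lower in STZ than in either control, Cldn5, Cdh5 and Tie1, with folds of 0.295, 0.464 and 0.483 against buffer. Kdr held most of these reads, and the other 5 genes summed to 166, 573 and 504 in that order. The 5 pericyte markers summed to 160, 423 and 397 reads, with Rgs5 lower against both controls. The 6 lens markers summed to 2364, 226 and 515 reads, and 4 passed the upper threshold over buffer and 3 over saline. The crystallin genes Cryba1, Crygd and Cryaa passed over both, by folds of 12.7 to 21.7 over buffer. Lim2 passed over buffer only, with a fold of 1.56 from 9 reads in STZ and 1 in buffer. Mip and Bfsp1 passed over neither, with folds of 1.11 and 1.44 over buffer and 1.11 and 0.875 over saline. The 4 blood markers summed to 339, 455 and 580 reads, with Hbb below 0.65 against saline. The tissue markers were present in every library, with 19962 to 24594 reads of the 6 neuron genes, among them the photoreceptor factor genes Crx and Nrl. Of the progenitor genes Lhx2, Pax6, Rax and Sox2, 1 was lower in STZ than in either control, Lhx2 with a fold of 0.603 over buffer, and the folds of the others were 1.02, 0.868 and 0.784.

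Of the other cathepsins in the table, Ctsl, a cysteine endopeptidase, was about as abundant as the leading members in the controls. In STZ its FPKM of 119 lay below the 177 of Ctsb and the 152 of Ctsd. Its reads numbered 2989 in STZ, 2204 in buffer and 2570 in saline. The folds of STZ, 1.35 over buffer and 1.16 over saline, were below the threshold. Ctse and Ctsw were near the limit of detection with at most 20 reads, and Tinagl1, a secreted cathepsin-like protein without protease activity, had 66, 36 and 63 in the same order. None of these 4 genes passed in any comparison.

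The genes that inhibit cathepsins, sort them or activate them mostly stayed within the thresholds, as did most genes. Of all genes, 2.25% were higher and 1.04% lower in STZ against buffer. Of the 8 inhibitor genes in the table, 0 passed in STZ against either control. The 7 inhibitor genes with at least 10 counts on average had a median log2 fold of 0.415 against buffer and 0.144 against saline. For all genes with such counts the medians were 0.03 and 0.01. Cst3, which encodes the secreted inhibitor cystatin C, counted 5928 reads in buffer, 6506 in saline and 7112 in STZ, for a fold of 1.2 over buffer. Cstb, for the cytosolic cystatin B, counted 429, 434 and 626 reads in the same order, for a fold of 1.45 over buffer, short of the threshold. The 1 inhibitor past the threshold in saline against buffer was Serpina3n, named after its values were seen, with 2, 33 and 16 reads. In that comparison 1.0% of all genes were higher.

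Of the 16 sorting and activation genes, 1 was higher in STZ than in either control, as were 1.39% of all genes. It was the legumain gene Lgmn. Legumain cleaves single-chain cathepsins into their mature chains. Its reads numbered 975 in buffer, 1050 in saline and 2326 in STZ. STZ was thus higher by a fold of 2.33 over buffer and 2.17 over saline. Both controls were again close, with a fold of 1.08 in saline against buffer. The list had a median log2 fold of 0.09 in STZ against buffer. Some members were named for their roles after their values were seen. The mannose 6-phosphate receptor genes Igf2r and M6pr had folds of 0.932 and 0.736 against buffer, and M6pr had fractional counts. Neu1 and Glb1, the partners of Ctsa, had 1.14 and 1.01, and Psap, for the precursor of the saposins, had 1.41.

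The TFEB list holds the transcription factors of lysosomal genes and the proteins that control them. Of its 9 genes, 0 passed in STZ against buffer, and the median log2 fold was 0.04. Flcn and Fnip1, which act together on TFEB, had folds of 1.06 and 0.945. Tfeb itself had 85, 74 and 83 reads. Against saline 1 of the 9 was higher, beside 2.04% of all genes. It was Rragd, a GTPase that holds TFEB at the lysosome, with a fold of 1.6 there and 1.3 against buffer.

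**Figure D5:**
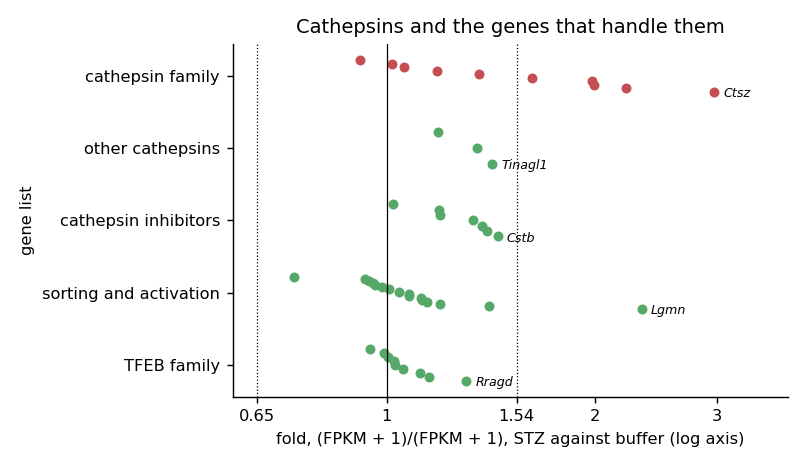
Fold of single genes in STZ against buffer (horizontal log axis) for the cathepsin family and for 4 lists, other cathepsins, cathepsin inhibitors, sorting and activation genes and the TFEB list, each restricted to genes averaging 10 counts or more. Dotted lines mark the fold thresholds, the gene with the largest fold is named in each row, and outside the family Lgmn alone passes.

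The genes whose values were nearest to those of the 4 cathepsins past both controls were sought among the 11794 genes averaging 100 counts or more. Nearness was the distance between the log2 folds of STZ against buffer and of saline against buffer, over 3 libraries. For both Ctsb and Ctsd the nearest were Irf8, a transcription factor of myeloid cells, with 87, 101 and 233 reads, and Galns, a lysosomal sulfatase, with 173, 204 and 368. For Ctss they were Fam167a and Laptm5, a lysosomal membrane protein of blood cells that is also in the microglia list. For Ctsz they were Tmem176a and C1qb, the latter with 205, 288 and 722 reads. With 3 libraries, such nearness describes these values only.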

How the data were processed

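RNA from P4 retinas was sequenced in 3 libraries, 1 per condition. Per the methods and the submitters' processing notes, reads were checked with FastQC, trimmed at the 5′ end and mapped to the rat genome (rn6) with TopHat2, allowing up to 2 mismatches, and reads with several locations were discarded. The authors computed FPKM with a custom R script and deposited FPKM, TPM and an estimated count of reads (estimated counts) per gene. How the counts and TPM were made, the annotation and the strand setting are not given in the sources used here. Of the deposited counts 12.9% to 13.2% were fractional per library, none of them in a cathepsin gene, and counts were rounded for intervals.

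The cathepsin genes and the 13 lists were chosen with earlier results of these data known. Folds were (FPKM + 1)/(FPKM + 1) with thresholds of 0.65 and its rounded inverse, as in the methods. Intervals at the 95% level are exact Clopper-Pearson for ratios and exact Poisson for levels. Named genes were all 10 cathepsins and, from each list, up to 6 genes past the thresholds against both controls, or otherwise the 2 with most reads. Other genes named are said to be so, or are markers that a value turns on. Alternatives were another pseudocount, other thresholds, TPM or CPM, count minimums, TMM factors (edgeR 4.0.16) and size factors (DESeq2 1.42.0, R 4.3.3), and, chosen after seeing the data, a smaller microglia list and cell type sums without the most abundant gene. No count model was fitted. Python 3.11.15, pandas 2.3.3, numpy 2.4.6, scipy 1.17.1 and matplotlib 3.10.9 were used, and the calculations were tested on simulated data. All 10 genes matched RefSeq (GRCr8), which gave gene order for all and promoters for all but Ctsb, and protein sequences were not used here. The summed level of the retinal progenitor list is not reported here.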

Additional observations from a re-analysis of the deposited data

How the results depend on the processing

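With thresholds of 2 and 0.5, 2 cathepsins were higher in STZ than in buffer, 1 than in saline, and 0 were past them in saline against buffer. The share of all genes past 2 and 0.5 was not computed, so these numbers have no background beside them. With a counting interval that excludes 1 in place of the fold, 8 cathepsins passed in STZ against saline, 6 higher and 2 lower. Of the 14885 genes with at least 10 counts on average, 26.9% were higher and 23.5% lower by this rule. In saline against buffer 6 cathepsins passed, 5 higher and 1 lower, beside 15.9% and 12% of those genes. Ctsh, the only gene past the threshold in saline against buffer, fell short of it with TMM factors, at 1.536, and with DESeq2 size factors, so that the number became 0 with each. The summed FPKM ratio in STZ against buffer was 1.63 with TMM factors, 1.63 with DESeq2 size factors and 1.53 without Ctsb. Without Ctsb it was 1.39 in STZ against saline. With a pseudocount of 0.1, Ctso also passed against buffer, at 1.6, and Ctsc against saline, at 1.58. Of 100 alternative folds of single cathepsins, 3 changed their side of a threshold and 0 reversed a called direction. Depth limits Ctsk and Ctso most, with 30 to 86 reads. No paired analysis was possible because each condition has 1 library. Effects of the injected agent, of the animals and of the dissection cannot be told apart in this design.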
